A study of Mus musculus with 4 samples.

Results

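The comparison sets whole eyes taken 7 days after light exposure against whole eyes taken 24 h after it, and asks which transcripts change between the acute and the late phase. All mice were Abca4-/-Rdh8-/-, and the label gives an age of 6 weeks for every sample. Strain, sex, the strength and length of the light, and whether the age is that at exposure or at collection are details that the labels do not state. Both samples are described as eyes of 3 mice, as are the other samples, an unexposed control and eyes taken 3 h after light, and the deposited table holds 1 FPKM value per gene and sample, where FPKM is the number of sequenced fragments scaled by transcript length and library size. Of 22558 listed genes, 14074 had a mean of at least 1 FPKM over the 4 samples and were not small RNA genes by name (Snora, Snord, Scarna, Mir or Rnu). These are the genes described. The change of a gene is log2(FPKM + 1) at 7 days minus that at 24 h, a scale that understates the change of low genes, and fold values are plain FPKM ratios. The design text speaks of a triplicate, but whether a value is a pool or a mean is not stated. With 1 value per sample there is no spread between replicates, no test and no p-value, and every difference below lacks a replicate check.

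Abca4 is the flippase that moves retinaldehyde conjugates out of photoreceptor discs, and Rdh8 is a photoreceptor enzyme that reduces all-trans-retinal. Without both, bright light leaves all-trans-retinal in the photoreceptors and damages them. In an injured retina Müller glia, the radial glia that span it, switch on an acute programme of cytokine signalling through gp130 and STAT3, and shift from their resting functions such as glutamate uptake and its conversion to glutamine. Microglia, the resident macrophages, move towards the photoreceptor layer and take up debris through receptors that signal through the adaptor Tyrobp.

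Some features of the libraries stand beside every result. Ddx3y and Eif2s3y, genes of the Y chromosome, were at 6.59 and 6.80 FPKM at 7 days and at no more than 0.0137 FPKM in each of the other 3 samples, so the 7-day eyes included male tissue and the 24-h eyes next to none, and sex and time cannot be told apart. Xist, the RNA that silences the second X chromosome of females, had 53.8 FPKM at 24 h and 37.1 at 7 days. The 458 X-linked genes had a median change of 0.01. In the list of X-inactivation and escape genes, which includes Xist, none of 6 measured members lay above 0, and the median was -0.29. Of these, 5 had their lowest value at 7 days (83.3%, against 23.6% of all genes). Lens genes took 25.1% of all FPKM at 24 h and 24.0% at 7 days, although the labels' protocol describes RNA from retinas. Skeletal muscle genes took 0.359% at 24 h, the lowest of the 4 samples, and 0.468% at 7 days. Rod photoreceptor genes took 2.08% and 2.14%, so retina was present in both samples. Abca4 was at 56.3, 40.6, 34.3 and 37.4 FPKM in the control, 3-h, 24-h and 7-day samples and Rdh8 at 10.5, 14.2, 11.9 and 11.02, which checks no label because all samples carry the same genotype.

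Between 24 h and 7 days most of the transcriptome moved little. The median change was -0.01, 48.6% of genes lay above 0, 79.0% lay within 0.2 of zero, and 95% of genes changed by less than 0.41 in either direction. A gene was called at an absolute change of at least 1. By that measure 46 genes were lower at 7 days (0.327% of the 14074 genes) and 16 were higher (0.114%), and 2 of the 16 were Y-linked. At the milder limit of log2 of 1.5 the counts were 169 lower (1.2%) and 123 higher (0.874%). Of the 46 lower genes, 42 had their highest value of the 4 samples at 24 h, and 13 had their lowest at 7 days. Of the 16 higher genes, 14 had their highest value at 7 days, and 9 had their lowest at 24 h. Of all genes, 24.7% had their highest value at 24 h and 23.6% their lowest at 7 days. Likewise 22.3% had their highest value at 7 days and 24.1% their lowest at 24 h. The choice of genes by the 24-h and 7-day values fixes these positions in part, so the counts describe the called genes only. The number of genes past the same limit was 62 for this pair of samples. It was 34 between the control and 7 days and 97 between the control and 24 h. For the pairs with the 3-h sample it was 60 against the control, 79 against 24 h and 69 against 7 days. The count of 62 thus lay within the range of the other pairs, most of which share a sample with it.

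**Figure D1:**
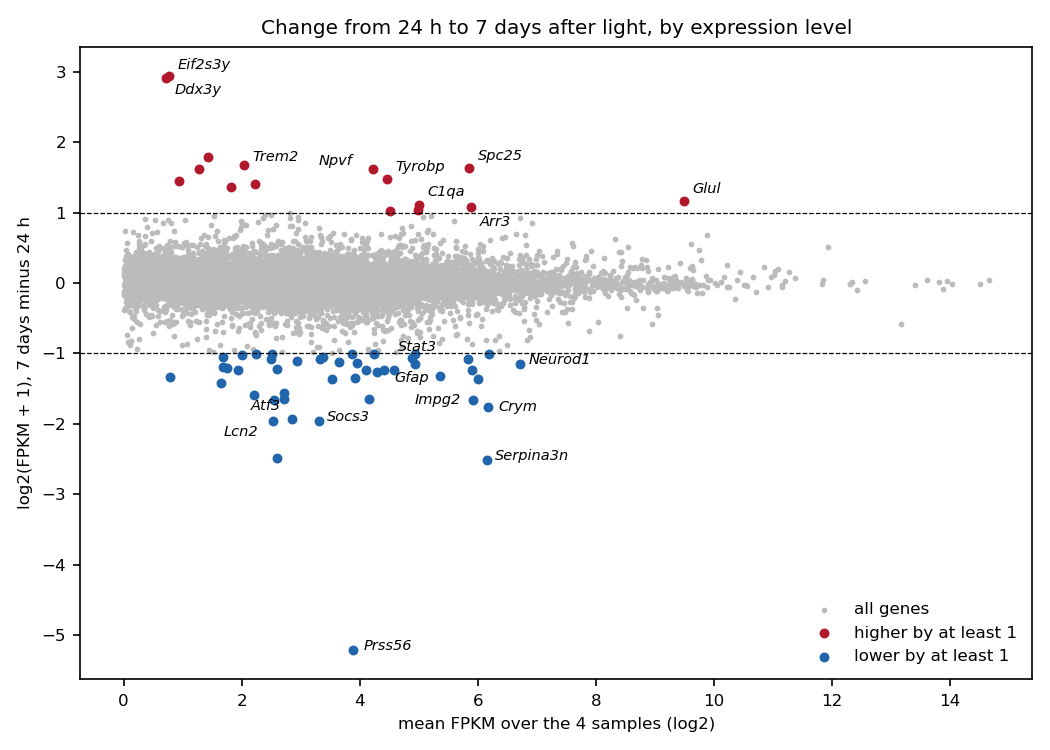
Change from 24 h to 7 days (log2(FPKM + 1), vertical axis) against mean FPKM over the 4 samples (log2, horizontal axis) for 14074 genes, each a point, with the 46 lower genes in blue, the 16 higher genes in red and dashed lines at a change of 1. Prss56 lies far below every other gene at -5.22, and Eif2s3y and Ddx3y of the Y chromosome lie highest.

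The largest difference of all genes was in Prss56, a secreted serine protease made by Müller glia whose loss shortens the eye in mice and humans. The table lists it as 1700027L20Rik, which RefSeq gives as a synonym of Prss56, and since the rule for naming passed over such gene models it was chosen after its value was seen. In the order control, 3 h, 24 h and 7 days, Prss56 had values of 3.44, 1.73, 53.5 and 0.466 FPKM, 114.7-fold lower at 7 days than at 24 h (log2 change -5.22). The 24-h sample stood alone, and the 7-day value was the lowest of the 4.

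Of the gene lists examined, which overlap, that of reactive glia held the most genes lower at 7 days, while 29 of the 46 lower genes were in no list. Of the 29 genes listed for reactive glia and gliosis, 28 passed the filter, 10 were lower by at least 1 and none was higher. Of the 28, 26 lay below 0, and the median was -0.61, against -0.01 for all genes. Of all genes 0.327% were lower by at least 1, 0.114% were higher and 48.6% lay above 0. The counts of every list below stand beside these shares. In 22 of the 28 the 24-h value was the highest of the 4 samples (78.6%, against 24.7% of all genes). The list was chosen with earlier results of these data known, so its direction is a description. In whole-eye RNA, fewer cells of a type and less RNA per cell cannot be told apart, here and in every result below.

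Serpina3n, which inhibits serine proteases and is made by reactive glia, had 28.5, 25.4, 196.9 and 33.6 FPKM in that order. It was 5.85-fold lower at 7 days than at 24 h (log2 change -2.51), and its 7-day value lay near those of the control and 3-h samples. Gfap, a filament protein and the usual marker of gliosis, had 18.3, 15.5, 93.0 and 36.8 FPKM and was 2.53-fold lower (-1.31). At 7 days Gfap was still above both the control and the 3-h sample. Lcn2, an acute-phase lipocalin, was at 1.76, 4.55, 13.99 and 2.86 FPKM and 4.90-fold lower (-1.96). Timp1, an X-linked inhibitor of metalloproteinases, was at 2.96, 3.23, 11.5 and 4.91 FPKM (-1.08), and Cp, the ferroxidase ceruloplasmin, at 39.1, 42.8, 100.3 and 46.7 FPKM (-1.08). Tnfrsf12a, the receptor of the cytokine TWEAK, was at 20.7 FPKM both at 3 h and at 24 h and at 9.80 at 7 days (-1.01).

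Most other genes of the list, not all of them made by glia, lay below 0 without reaching the limit. Edn2, an endothelin made by injured photoreceptors, was at 0.761, 0.688, 10.01 and 6.17 FPKM (-0.62), so at 7 days it was still well above the control. Vim, an intermediate filament of all Müller glia, was at 457 FPKM at 24 h and 359 at 7 days (-0.35), and Fgf2, a survival factor, at 8.27 and 6.70 (-0.27). The metallothionein genes Mt1 and Mt2, which bind zinc and copper, were at 586 and 304 FPKM at 24 h and 428 and 207 at 7 days (-0.45 and -0.55). Sox9, a transcription factor of Müller glia at rest and in injury, was at 6.24 and 6.03 FPKM, and the 2 members above 0 were Mt3 (42.4 and 46.4 FPKM) and Fgf13 (3.52 and 4.73 FPKM).

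Signalling through gp130 and STAT3 moves from cytokines such as LIF through their receptors to the kinase JAK1 or JAK2, the transcription factor STAT3 and its feedback inhibitor SOCS3. Of 25 measured genes of that list, 5 were lower by at least 1, against 0.327% of all genes, and none was higher. The median was -0.29. Socs3 was at 4.13, 7.50, 22.8 and 5.12 FPKM in the control, 3-h, 24-h and 7-day samples, 4.46-fold lower at 7 days than at 24 h (-1.96). Osmr, the receptor of oncostatin M, was at 6.33, 8.69, 22.7 and 8.21 FPKM (-1.36), and Stat3 at 20.4, 23.3, 54.2 and 23.9 FPKM (-1.15). In each of these genes the 24-h value was the highest and the 7-day value lay closer to the control than to 24 h.

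Junb, a subunit of AP-1, was also past the limit, at 36.6, 63.3, 113.4 and 43.7 FPKM (-1.36). The ligand Lif was highest at 3 h, at 2.84 FPKM, and was at 1.05 at 24 h and 0.393 at 7 days (-0.56). The shared receptor chain Il6st, which encodes gp130, was at 47.9 FPKM at 24 h and 35.0 at 7 days (-0.44). The kinase genes differed less, with Jak1 at 24.0 and 24.7 FPKM (0.04), Jak2 at 14.1 and 13.1 (-0.10) and Tyk2 at 4.95 and 5.29 (0.08). The ligand genes Il6, Osm and Il11 did not pass the filter, with at most 0.311 FPKM in any sample.

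The 250 bases upstream of the RefSeq start (GRCm38.p6, a later build than the mm9 of the deposited values) are shown for 2 of the genes with the largest decreases, with capitals marking the letters TTCNNNGAA, which read the same on both strands and are the core that STAT dimers bind:
Prss56 (chr1:87183064-87183313, plus strand): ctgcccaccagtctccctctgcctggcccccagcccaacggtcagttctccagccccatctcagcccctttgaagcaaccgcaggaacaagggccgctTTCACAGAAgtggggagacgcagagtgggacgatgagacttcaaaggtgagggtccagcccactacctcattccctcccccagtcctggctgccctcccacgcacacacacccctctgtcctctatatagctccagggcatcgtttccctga
Socs3 (chr11:117969367-117969616, minus strand): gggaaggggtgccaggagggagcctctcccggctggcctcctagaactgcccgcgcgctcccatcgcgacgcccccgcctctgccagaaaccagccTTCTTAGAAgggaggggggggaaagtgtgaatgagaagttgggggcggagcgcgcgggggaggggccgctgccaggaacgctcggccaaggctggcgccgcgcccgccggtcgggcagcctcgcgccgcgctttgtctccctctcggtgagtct
Among the 46 lower genes 36 matched a RefSeq promoter, and 3 of the 36 (8.33%) held this motif, the third being Glycam1. Of all 11044 genes with a matched promoter, 6.87% held it, so the share among the lower genes was near the background. A match of letters is not a binding site.

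Acute-phase and C/EBP genes, which respond to inflammatory cytokines, showed a similar pattern. Of 13 measured genes 4 were lower by at least 1, against 0.327% of all genes, and none was higher. The median was -0.42, and Serpina3n, Lcn2 and Cp stand in this list too. The fourth was Cebpd, a C/EBP transcription factor, at 4.58, 26.3, 31.0 and 9.27 FPKM and 3.35-fold lower at 7 days than at 24 h (-1.64). Its 3-h value was nearly as high as that at 24 h, unlike that of Serpina3n. A2m, which encodes a protease inhibitor of the alpha-2-macroglobulin family, was at 139.4 FPKM at 24 h and 75.4 at 7 days (-0.88). Cebpb was at 15.4 and 12.2 FPKM (-0.31) and Cebpa at 6.89 and 7.38 (0.09). The letters TTGCNNAA, part of many C/EBP sites, were searched on both strands. They were found in 5 of the 36 lower promoters (13.9%), in none of the 12 promoters of higher genes and in 8.94% of all. With so few promoters these shares describe only the genes counted. The AP-1 letters TGANTCA stood in 2 of the 36 lower promoters (5.56%), in 1 of the 12 of higher genes and in 5.61% of all. The Lcn2 promoter is shown with the letters TTGCNNAA in capitals:
Lcn2 (chr2:32387740-32387989, minus strand): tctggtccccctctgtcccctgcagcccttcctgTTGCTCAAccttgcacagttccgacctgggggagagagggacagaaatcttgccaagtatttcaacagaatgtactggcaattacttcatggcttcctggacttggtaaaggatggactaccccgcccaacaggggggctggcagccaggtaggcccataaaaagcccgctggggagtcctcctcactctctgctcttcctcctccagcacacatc

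**Figure D2:**
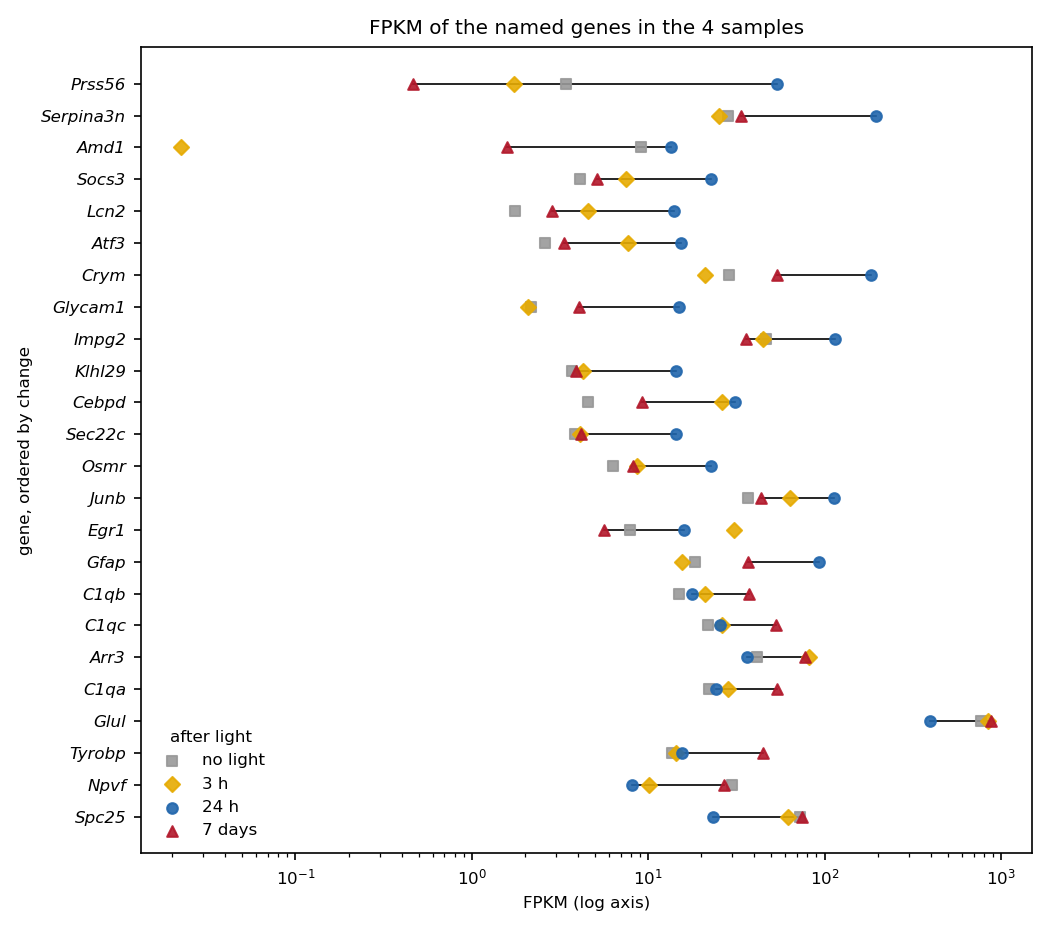
FPKM (log axis) of Prss56 and of the 23 genes named by rule in the 4 samples, each symbol 1 sample and each line joining 24 h to 7 days, ordered by change. For most lower genes the 24-h circle lies to the right of the other 3 symbols, while for Tyrobp and the C1q genes the 7-day triangle stands alone.

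Immediate early genes, the fast response of cells to stimulation, were lower at 7 days in part. Of 27 measured members 4 were lower by at least 1, against 0.327% of all genes, and none was higher. Above 0 lay 8 of the 27, against 48.6% of all genes, and the median was -0.24. Atf3, a stress-induced factor of the AP-1 and CREB families, was at 2.59, 7.70, 15.4 and 3.31 FPKM, highest at 24 h and 4.64-fold lower at 7 days (-1.92). Egr1 was at 7.90, 30.8, 15.9 and 5.65 FPKM (-1.35) and Fos at 14.2, 47.0, 24.9 and 10.05 FPKM (-1.23). Both were highest at 3 h and lowest at 7 days, so their 24-h values were already below the 3-h values. Nr4a1, an orphan nuclear receptor, was just outside the limit at 12.4 and 5.82 FPKM (-0.98), and Jun went from 36.2 to 20.8 FPKM (-0.77). At the other end Ctgf, a matricellular target of TGF-beta and YAP, was at 62.2 FPKM at 24 h and 97.8 at 7 days (0.64), and Cyr61 was at 24.6 and 35.2 (0.50).

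Few interferon and chemokine genes were past the limit, although most interferon-stimulated genes lay below 0. Among 30 measured interferon-stimulated and class I genes 1 was lower past the limit, against 0.327% of all genes. Of the 30, 25 lay below 0, while 48.6% of all genes lay above it, and the median was -0.17. The transcription factor genes Irf9 (28.3 and 14.1 FPKM, -0.96) and Stat2 (14.998 and 7.53 FPKM, -0.91) lay close to the limit. Past the milder limit 4 of the 30 were lower, against 1.2% of all genes. In 15 of the 30 the 24-h value was the highest (50%, against 24.7% of all genes). The interferon-induced genes Ifit1 (13.4 and 11.3 FPKM) and Isg15 (32.9 and 27.9 FPKM) moved by -0.23 each. Irf7 (27.7 and 17.1 FPKM) moved by -0.67 and Ifi27l2a (57.6 and 37.4 FPKM) by -0.61. Of 25 measured chemokine and cytokine genes 1 was past the limit, Ccl12, which draws monocytes, with values of 2.29, 0.820, 7.29 and 2.09 FPKM (-1.42). Ccl2, a related chemokine, was at 2.35 FPKM at 24 h and 1.23 at 7 days (-0.58), and Cxcl10 at 2.197 and 0.801 (-0.83).

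Genes of microglia and macrophages lay on the other side. Among 15 measured genes of homeostatic microglia 2 were higher by at least 1, against 0.114% of all genes, and none was lower. Above 0 lay 14 of the 15, against 48.6% of all genes, and the median was 0.57. In 13 of the 15 the 7-day value was the highest of the 4 samples (86.7%, against 22.3% of all genes). Of 31 measured myeloid and Fc receptor genes none was past the limit and 8 were higher past the milder one, against 0.874% of all genes. Above 0 lay 28 of the 31, and the median was 0.35. The list of TREM2 and disease-associated microglia held 25 measured genes, 2 of them past the limit and 19 above 0, with a median of 0.20. The 2 called genes of this list, Trem2 and Tyrobp, are also those of the homeostatic list.

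Trem2, the lipid receptor of phagocytic microglia, had 2.14, 2.37, 2.31 and 9.62 FPKM in sample order, 4.16-fold higher at 7 days than at 24 h (log2 change 1.68). Tyrobp, its signalling adaptor, was at 13.6, 14.5, 15.5 and 44.9 FPKM and 2.90-fold higher (1.48). The first 3 samples lay close together for both genes and the 7-day sample stood alone. Cst7, a cystatin of microglia that have taken up debris, was below the filter with 0.191, 0.196, 0.234 and 1.81 FPKM. Clec7a, a C-type lectin receptor of activated microglia, was at 1.76 FPKM at 24 h and 4.15 at 7 days (0.90), and Cd68, a lysosomal protein of phagocytes, at 6.48 and 12.1 (0.81). The rise was not shared by the whole list of TREM2 and disease-associated microglia. There 19 of 25 measured genes lay above 0, and the lowest change was -0.41. Axl of that list was at 22.3 FPKM at 24 h and 22.0 at 7 days (-0.02).

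Most other genes of the homeostatic list lay above 0 without reaching the limit, and Olfml3 (-0.12) lay below. Cx3cr1, the fractalkine receptor, was at 3.79, 2.33, 3.16 and 6.66 FPKM (0.88) and P2ry12, a receptor of extracellular nucleotides, at 1.57, 1.59, 0.864 and 2.36 FPKM (0.85). Csf1r, the receptor on which microglial survival depends, was at 10.5 FPKM at 24 h and 17.6 at 7 days (0.70), and Tmem119 at 7.16 and 10.7 (0.51). Tmem119 was at 9.87 FPKM in the control, so its 7-day value differed little from that sample. Among general myeloid genes Mpeg1, which encodes a pore-forming protein of phagocytes, was at 4.51 and 9.78 FPKM (0.97), Laptm5 at 5.41 and 11.2 (0.92) and Fcer1g, the shared Fc receptor chain, at 11.3 and 19.0 (0.71). Ccr2, a chemokine receptor of monocytes, was at 2.10 and 2.24 FPKM (0.06), Cd14 at 3.08 and 2.87 (-0.07) and the scavenger receptor Cd163 at 1.62 and 1.72 (0.05).

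Complement genes moved in both directions. C1qa, C1qb and C1qc, the chains of C1q, which microglia make in the retina, were the 3 members past the limit among 20 measured, and none was lower by that much. C1qa was at 22.0, 28.5, 24.1 and 53.5 FPKM, C1qb at 15.03, 21.0, 17.8 and 37.2, and C1qc at 21.8, 26.2, 25.4 and 53.2. They were 2.21-, 2.09- and 2.10-fold higher at 7 days than at 24 h. The protease gene Cfd, made by fat cells, was at 9.77 FPKM at 24 h and 4.72 at 7 days (-0.91), Cfi at 2.86 and 1.22 (-0.80) and C4b at 17.3 and 13.1 (-0.37). C3 was at 5.17 and 4.43 FPKM (-0.19), and the median of the list was 0.02.

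The upstream 250 bases of C1qb and C1qc are shown with capitals at the letters AGGAAGT or their reverse complement, a core bound by PU.1, the transcription factor of the myeloid lineage:
C1qb (chr4:136886201-136886450, minus strand): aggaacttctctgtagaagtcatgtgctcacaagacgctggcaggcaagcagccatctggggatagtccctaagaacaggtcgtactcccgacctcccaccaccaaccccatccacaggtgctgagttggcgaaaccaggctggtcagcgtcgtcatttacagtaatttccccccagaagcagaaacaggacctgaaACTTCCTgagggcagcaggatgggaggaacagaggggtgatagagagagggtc
C1qc (chr4:136892915-136893164, minus strand): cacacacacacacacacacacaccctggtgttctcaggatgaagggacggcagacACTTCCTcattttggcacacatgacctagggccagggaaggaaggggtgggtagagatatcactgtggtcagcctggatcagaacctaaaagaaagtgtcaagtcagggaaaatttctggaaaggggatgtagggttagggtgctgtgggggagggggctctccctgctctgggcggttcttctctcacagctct
This motif stood in 3 of the 12 promoters matched for the 16 higher genes, those of C1qb, C1qc and Spc25, in 5 of the 36 of the lower genes (13.9%) and in 7.91% of all. With so few promoters the shares only describe these genes.

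Lysosome genes as a whole differed little, with a median of 0.08 and none of 33 past the limit. Ctss, a cathepsin of phagocytes, was at 22.6 FPKM at 24 h and 39.6 at 7 days (0.78). All 7 measured genes of MHC class II presentation lay above 0 and had their highest value at 7 days, with a median of 0.29 and none past the limit. Of all genes 48.6% lay above 0 and 22.3% had their highest value at 7 days. H2-Aa went from 39.8 to 50.7 FPKM (0.34) and Cd74, the invariant chain, from 79.5 to 91.8 (0.21). Transcripts typical of T cells, B cells and neutrophils were scarce in both samples, while mast cell genes are given among the other observations. T and B cell genes were below the filter, with Cd3e at 0.0443 and 0.0307 FPKM and Ms4a1 at 0.0370 and 0.0350, and the neutrophil genes Mpo, Elane and Ngp were at no more than 0.116 FPKM at both times. S100a8 and S100a9, calprotectin genes of neutrophils and monocytes, were at 2.13 and 3.54 FPKM at 24 h and 3.49 and 4.80 at 7 days.

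**Figure D3:**
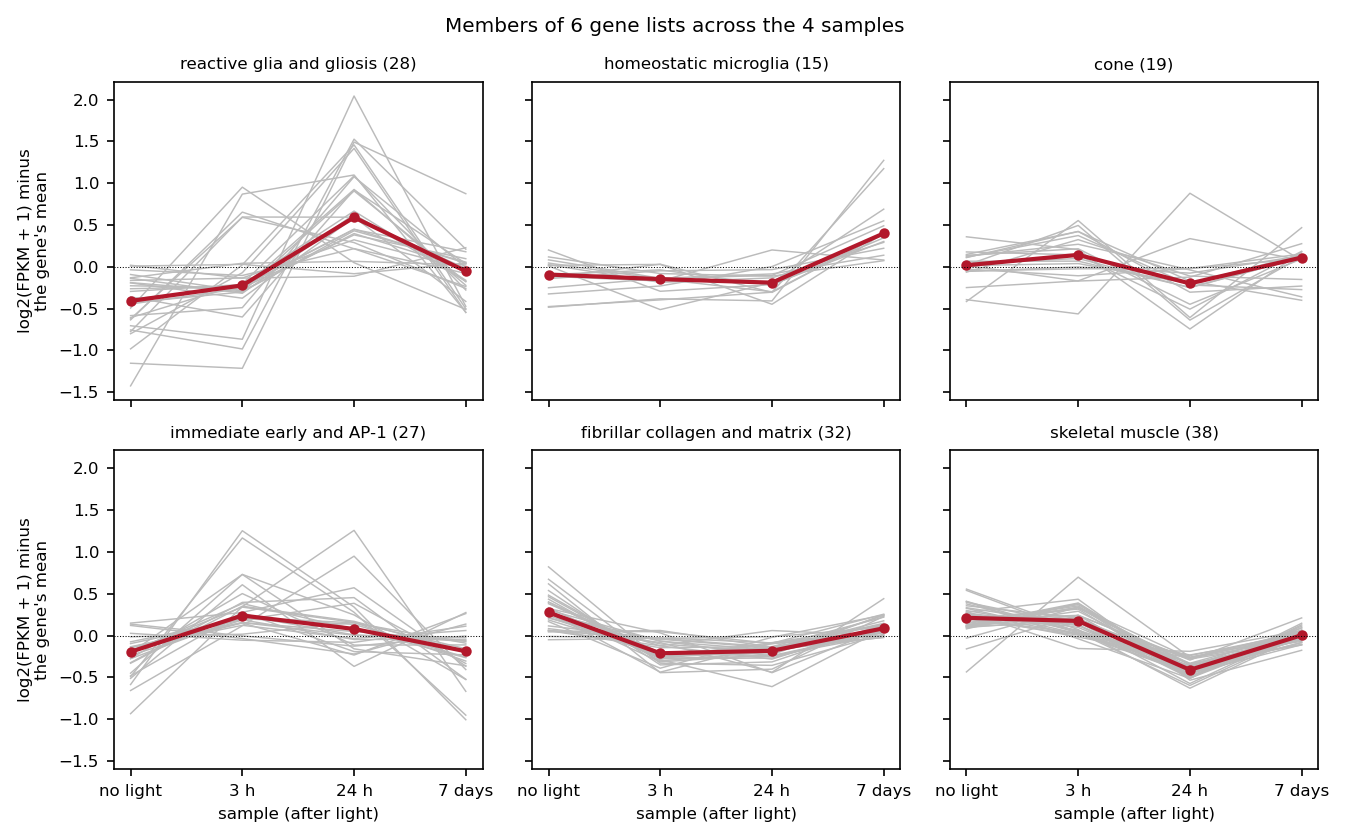
Members of 6 gene lists across the 4 samples, each grey line 1 gene as log2(FPKM + 1) minus that gene's mean over the 4 samples, with the median in red and the number of genes in parentheses. Reactive glia genes peak at 24 h, homeostatic microglia genes are highest at 7 days, immediate early genes are highest at 3 h, and skeletal muscle genes are lowest at 24 h.

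Resting Müller glia genes contained called members in both directions. Of 25 measured genes 2 were higher by at least 1 and 1 was lower, and the median was 0.26. Glul, the glutamine synthetase that detoxifies glutamate, had 769, 849, 395 and 884 FPKM in sample order, 2.24-fold higher at 7 days than at 24 h (1.16). Spc25 was at 72.4, 61.9, 23.3 and 74.4 FPKM and 3.20-fold higher (1.64). It encodes a kinetochore subunit and stands in the list as a gene of mouse Müller glia. In both genes only the 24-h sample was low.

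Crym, which binds thyroid hormone, was at 28.8, 20.9, 184.3 and 54.0 FPKM and 3.42-fold lower at 7 days (-1.75), the only called member below 0, while 6 other members also lay below 0. Apoe, the lipid carrier of Müller glia, was at 778 FPKM at 24 h and 1247 at 7 days (0.68), Abca8a at 19.0 and 31.8 (0.71) and Rlbp1, the retinaldehyde-binding protein of Müller glia and pigment epithelium, at 152 and 219 (0.52). Apoe is also made by microglia. Aqp4, the glial water channel, was at 21.8 and 29.4 FPKM (0.42), while the glutamate transporter Slc1a3 was at 45.4 and 40.4 (-0.16) and the potassium channel Kcnj10 at 3.87 and 3.83 (-0.01).

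Several core cone genes lay above 0. Of 19 measured genes 1 was higher past the limit and 4 past the milder one, against 0.114% and 0.874% of all genes. Above 0 lay 13 of the 19, against 48.6% of all genes, and the median was 0.21. Arr3, cone arrestin, was at 41.5, 82.1, 36.2 and 77.3 FPKM and 2.14-fold higher at 7 days than at 24 h (1.07). Its 3-h value was the highest and its control value near that at 24 h, so Arr3 was high in 2 of the 4 samples. It lies on the X chromosome. The short-wave opsin gene Opn1sw was at 130.3, 117.1, 60.2 and 114.9 FPKM (0.92), the middle-wave opsin gene Opn1mw at 34.6, 48.4, 21.6 and 37.2 (0.76) and the cone transducin gene Gnat2 at 42.1, 41.1, 25.8 and 42.3 (0.69). In these 3 genes only the 24-h sample was low. Gnb3, the transducin beta subunit of cones and bipolar cells, went the other way at 79.5, 70.5, 193.3 and 110.3 FPKM (-0.80), and Pde6c, the cone phosphodiesterase, was at 25.8 FPKM at 24 h and 21.4 at 7 days (-0.26).

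Rod genes had a median of 0.05, with none of 34 measured members past the limit in either direction, although 20 of them had their highest value in the control and none at 7 days. Within the list the members spread from -0.75 to 0.56. Pdc, phosducin, was at 1046, 802, 516 and 762 FPKM (0.56) and Nr2e3, a repressor of cone genes in rods, at 168, 107, 72.3 and 105 (0.54). Nrl, the factor that sets rod fate, was at 304 FPKM at 24 h and 380 at 7 days (0.32). The disc rim gene Prph2 differed by 0.04. Below 0 lay Rbp3, the retinoid carrier between photoreceptors and pigment epithelium, at 351, 374, 400.1 and 237 FPKM (-0.75), Aipl1, a chaperone of the rod phosphodiesterase, at 245, 231, 288 and 180 (-0.68), and Samd7, a chromatin regulator of rods, at 17.0, 17.9, 24.8 and 15.5 (-0.65). All 3 were highest at 24 h and lowest at 7 days.

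Further photoreceptor genes were past the limit and highest at 24 h, and all of them but Arl6, which was lowest in the control, were lowest at 7 days. Impg2, a proteoglycan of the matrix around photoreceptors, was named by rule, at 46.5, 45.0, 114.7 and 35.7 FPKM and 3.21-fold lower at 7 days than at 24 h (-1.65). Neurod1, a transcription factor that maintains photoreceptors, was at 84.3, 103.7, 162.0 and 72.3 FPKM (-1.15). Arl6, a GTPase that brings the Bardet-Biedl protein complex to cilia, was at 53.9, 61.5, 118.8 and 58.6 FPKM (-1.01), and Cnnm4, a magnesium transporter whose loss causes cone-rod dystrophy in humans, at 16.6, 17.6, 36.1 and 14.8 (-1.23). Lower past the milder limit only were Mak, a kinase of the photoreceptor cilium, at 24.1, 26.9, 35.7 and 18.6 FPKM (-0.91), and Agtpbp1, a tubulin deglutamylase, at 53.2, 62.8, 125.4 and 71.4 (-0.80). The glycolytic enzyme Hk1, of the list of glucose use and pyruvate control (median 0.04), was at 107.8, 108.0, 163.1 and 95.9 FPKM (-0.76). Neurod1, Arl6, Cnnm4 and Agtpbp1 were chosen after their values were seen. The list of cilium and ribbon synapse genes had a median of -0.11, with none of 33 past the limit and 10 above 0.

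Other neurons differed less. Bipolar cell genes had a median of 0.13 and amacrine, horizontal and ganglion cell genes 0.05, with none of 26 measured members in either list past the limit. Grm6, the glutamate receptor of ON bipolar cells, was at 6.77 FPKM at 24 h and 10.8 at 7 days (0.60). Among 11 measured neuropeptide genes 1 was higher past the limit, against 0.114% of all genes. Npvf, which encodes RFamide-related peptides, was at 29.8, 10.2, 8.06 and 26.9 FPKM and 3.33-fold higher at 7 days than at 24 h (1.62), low at 3 h and 24 h and high in the other samples. Vip went from 8.48 to 4.52 FPKM (-0.78) and Tac1, the substance P precursor gene, from 12.3 to 7.68 (-0.62).

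In the pigment epithelium list none of 30 measured genes was past the limit and the median was 0.11. Rpe65, the isomerase that regenerates 11-cis-retinol, was at 123.5, 130.1, 80.8 and 146.7 FPKM (0.85). Ttr, a carrier of thyroid hormone and retinol-binding protein, was at 779 FPKM at 24 h and 1077 at 7 days (0.47), and Trf, the iron carrier transferrin, at 692 and 462 (-0.58). Genes for all-trans-retinal and retinol handling in photoreceptors, Rdh12 (66.5 and 71.0 FPKM), Abca4 and Rdh8, moved by 0.09, 0.12 and -0.10.

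Genes of the connective coats lay above 0 without reaching the limit, and genes of skeletal muscle, which can remain on a dissected eye, moved with them. All 38 muscle genes lay above 0, against 48.6% of all genes, between 0.21 and 0.66, with a median of 0.38. In 37 of the 38 the 24-h value was the lowest of the 4 samples (97.4%, against 24.1% of all genes). Of 32 measured fibrillar collagen and matrix genes 31 lay above 0, with a median of 0.29, and of 23 elastic fibre genes 19, with a median of 0.25. Col1a1 was at 468, 224, 231 and 358 FPKM (0.63), Col3a1 at 166, 76.2, 60.8 and 98.9 (0.69) and Eln, elastin, at 22.4, 6.96, 5.89 and 9.94 (0.67). All 3 were highest in the control, and their 7-day values lay between 24 h and the control. Thbs1, a matricellular protein, was at 50.3, 44.8, 34.8 and 64.8 FPKM (0.88), and of 28 genes of vessel walls 25 lay above 0, with a median of 0.22. The part that the amount of attached tissue has in these medians was not tested.

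**Figure D4:**
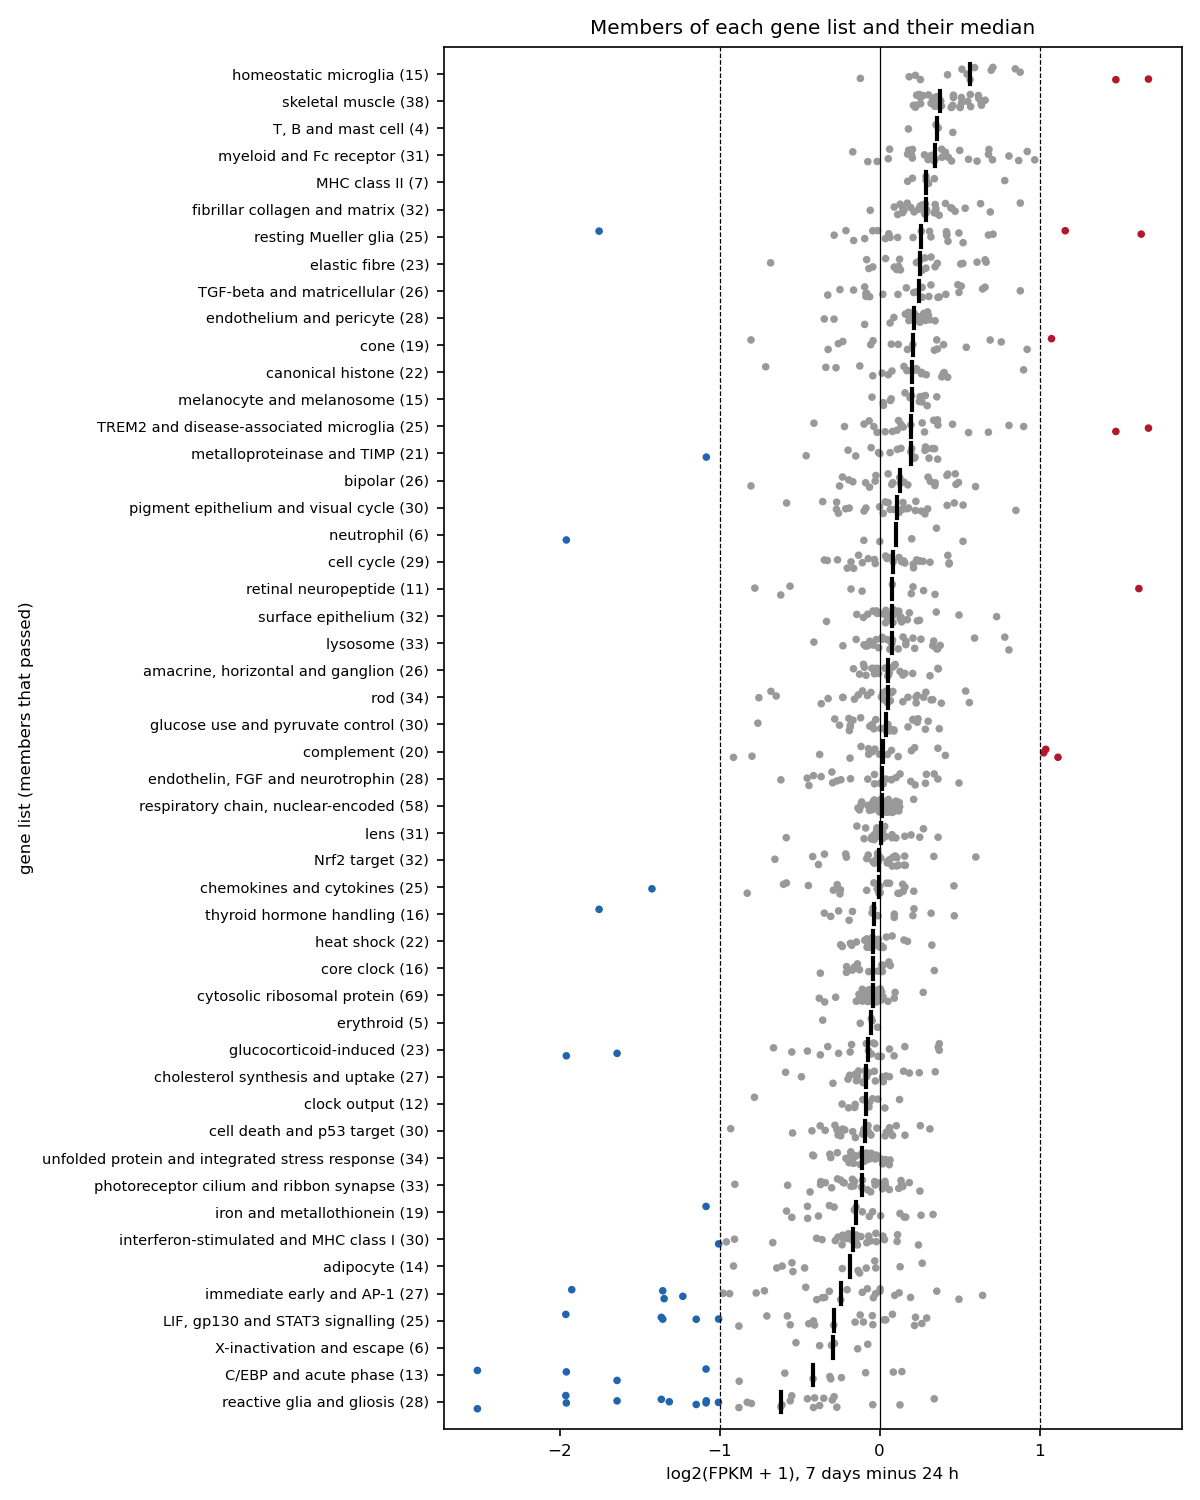
Change from 24 h to 7 days (log2(FPKM + 1), horizontal axis) of the members of each gene list with at least 4 measured members, each point a gene, with called genes in red (higher) and blue (lower), the median as a black bar and the number of measured members in parentheses. Reactive glia genes have the lowest median of these lists (-0.61) and homeostatic microglia genes the highest (0.57), while skeletal muscle genes form a narrow cluster above 0.

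Housekeeping and stress lists had medians near 0, although in some of them most members lay below 0. Above 0 were 5 of 34 genes of the unfolded protein and integrated stress response and 15 of 69 ribosomal protein genes. So were 9 of 30 of cell death and p53 targets, 9 of 27 of cholesterol synthesis and 8 of 22 heat shock genes. Nrf2 targets (16 of 32), lens genes (16 of 31) and respiratory chain genes (35 of 58) were more even, against 48.6% of all genes. Nuclear-encoded respiratory chain genes had a median of 0.01 with 58 members between -0.14 and 0.21, cytosolic ribosomal protein genes -0.04 over 69 members, and lens genes 0.01 over 31. Nrf2 targets had a median of 0.00, heat shock genes -0.04, and it was -0.11 for the unfolded protein and integrated stress response, -0.09 for cell death and p53 targets and -0.08 for cholesterol synthesis, with none of their members past the limit. Within these lists Gadd45b, a stress-induced growth arrest gene, was at 29.3 FPKM at 24 h and 14.9 at 7 days (-0.93), and Nqo1, a quinone reductase, had the largest increase of the Nrf2 targets at 0.60. The median of the core clock genes was -0.04 and that of their output genes -0.09, with the largest decreases in Per1 (-0.37) and, among the output genes, Adcy1 (-0.78), a calcium-stimulated adenylyl cyclase.

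Of the lower genes 29 and of the higher genes 5 were in none of the lists. Beyond Prss56 and the photoreceptor genes, those named by rule were Glycam1, Klhl29, Sec22c and Amd1. Glycam1, a mucin-like ligand of L-selectin, was at 2.17, 2.09, 14.99 and 4.07 FPKM (-1.66). Klhl29, of the kelch-like family, was at 3.72, 4.24, 14.4 and 3.89 FPKM (-1.65), and Sec22c, a protein of vesicle traffic from the endoplasmic reticulum, at 3.85, 4.12, 14.3 and 4.17 (-1.56). For all 3 the 24-h value stood apart, and for Klhl29 and Sec22c the other samples lay within a narrow range, while Glycam1 was higher at 7 days than in the control and 3-h samples. Amd1, which makes decarboxylated S-adenosylmethionine for polyamines, was at 9.12, 0.0225, 13.4 and 1.58 FPKM (-2.48), but it has the near-identical copy Amd2, between which fragments may be divided unevenly, so its value is uncertain.

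Lower genes outside the rule, chosen after their values were seen, included signalling genes. Ndp, an X-linked gene for the Müller-derived ligand norrin that maintains retinal vessels, was at 1.998, 2.75, 6.47 and 2.23 FPKM (-1.21). Ahr, the aryl hydrocarbon receptor, was at 20.8 FPKM at 24 h and 9.05 at 7 days (-1.12), Btc, an EGF-family ligand, at 14.8 and 6.32 (-1.11), and Nog, a BMP antagonist, at 7.72 and 3.33 (-1.01). Ch25h, which makes 25-hydroxycholesterol, was at 6.25 and 2.49 FPKM (-1.05) and Aldh1l1, a folate enzyme that marks astrocytes, at 18.2 and 8.10 (-1.08). Higher genes outside the rule, beside Trem2 and the Y-linked pair, were BC055402, a long non-coding RNA gene, at 2.85, 2.002, 0.776 and 5.13 FPKM (1.79), Snx31, a sorting nexin, at 2.71, 2.93, 0.485 and 3.57 FPKM (1.62), Ins2, an insulin gene, at 1.10, 1.797, 0.820 and 3.98 (1.45), the X-linked channel subunit gene Kcne1l at 4.05, 2.29, 1.71 and 5.99 (1.37), and Hjurp, a chaperone of centromeric histone listed as 6430706D22Rik, at 6.50, 3.54, 1.93 and 6.79 (1.41). These rest on low FPKM.

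The filter on mean FPKM split genes of like level. Just inside it was Rasd1, with a mean of 1.001 FPKM and a change of -0.16. Just outside were Wfikkn1, with 0.999 FPKM and 0.07, and Agphd1, with 0.999 FPKM and -0.04.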

How the data were processed

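RNA of whole eyes was sequenced and the authors deposited FPKM values, 1 per gene and condition. The submitters' processing notes name Cuffdiff 2.2.1, TopHat2 with version 2, bcl2fastq 1.8.3 and the build mm9. The sources used here do not state the gene annotation, the library scaling, or whether a value is a pool or a mean of the triplicate that the design text mentions. FPKM scales each gene to the library, so a few abundant transcripts can shift all others.

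From these values log2(FPKM + 1) differences were computed with Python 3.11.15, pandas 2.3.3 and numpy 2.4.6, and the arithmetic was tested on simulated data. Without replicates no test was run. Approximate depth was read from olfactory receptor genes above 0 in a single sample, whose median, taken as 1 fragment, was 0.0349 FPKM at 24 h (18 genes) and 0.0255 at 7 days (20 genes). On that scale the counting error of a log2 change is 0.18 at 1 FPKM, 0.13 at 5 and 0.08 at 20, and does not cover the spread between animals. RefSeq (GRCm38.p6) served for gene classes, synonyms and promoters, and 22299 of 22558 names matched (98.9%).

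Named by rule were the 15 genes with the largest decrease and the 15 with the largest increase among called genes with a mean of at least 5 FPKM, of which 15 and 8 existed. Gene models, small RNA and Y-linked genes were passed over. Members of the 52 lists, with 1372 entries, could be named within their list. The comparison, the lists, the motifs and the rules were chosen with earlier results of these data known. The list of genes encoded by the mitochondrial genome matched no name. Alternatives were another pseudocount, other filters, rescalings, gene classes, removal of X- and Y-linked genes and a milder limit, the last pair chosen after seeing the data. Values of some genes that the lists and counts include are not reported here.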

Additional observations from a re-analysis of the deposited data

How the results depend on the processing

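The counts of called genes depended on how low values were treated. In place of 46 lower and 16 higher genes, a pseudocount of 0.1 gave 74 and 47, and a call at log2 of 1.5, chosen after seeing the data, gave 169 and 123. With a mean of at least 5 FPKM 37 lower and 8 higher genes were left, because fewer genes were tested. No filter gave 46 and 19, rescaling by the median ratio 45 and 16, rescaling to the same sum without lens, muscle, erythroid, surface epithelium and small RNA genes 46 and 16, protein-coding genes alone 44 and 15, and removal of X- and Y-linked genes, also chosen after seeing the data, 44 and 12. No gene that passed was listed at 0 at 24 h or 7 days, so leaving out such genes changed nothing. Both rescalings shifted the median gene by less than 0.01. List medians changed sign in 7 lists. That of neutrophil genes (0.10) was -1.96 with a mean of at least 5 FPKM, where Lcn2 is the only member left, and that of T, B and mast cell genes (0.36) was -0.0016 without a filter. Retinal neuropeptide genes (0.08) had -0.05 with a mean of at least 5 FPKM and -0.09 without a filter. Cell cycle genes (0.09) had -0.11 and chemokine genes (-0.004) 0.04 with a mean of at least 5 FPKM, and chemokine genes had 0.0014 with the median ratio. Complement genes (0.02) had -0.0011 with a mean of at least 5 FPKM, without a filter and without X- and Y-linked genes. Nrf2 targets (-0.0008) had 0.0055 with the median ratio and 0.0069 without X- and Y-linked genes. The 23 genes named by rule kept their direction under each alternative run for them, and Arr3, being X-linked, had no value without X- and Y-linked genes. No alternative was run for the other single genes. No paired analysis was possible because each condition has 1 value and the labels give no replicate numbers.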

Other observations

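The 120 small RNA genes that reached a mean of 1 FPKM and were set aside had 27 members lower and 26 higher by at least 1 and 59 of them were listed at 0 at 24 h or 7 days. Snord69 was listed at 0 in the control, at 2573 FPKM at 3 h, at 1858 at 24 h and at 0 at 7 days.

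Fat cell genes, which can remain on the outside of the eye, had a median change of -0.18 with 2 of 14 measured members above 0 and none past the limit. Fabp4 and Cfd are among them, and 13 of the 14 had their highest value at 3 h. Mast cell genes of the eye's coats lay above 0, with Mcpt4 at 2.48 FPKM at 24 h and 3.79 at 7 days and Cpa3 at 1.60 and 2.33. The median of surface epithelium genes was 0.08, with Krt14 at -0.33. Krt16, a keratin of stressed epithelium, was at 0.442, 1.97, 0.515 and 1.52 FPKM in the control, 3-h, 24-h and 7-day samples (0.73). Its values were low in all samples and highest at 3 h. The oligodendrocyte gene Mobp was at 3.65, 3.36, 3.26 and 1.15 FPKM in the control, 3-h, 24-h and 7-day samples (-0.98), lowest at 7 days. It was chosen after its values were seen.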
